A study of Mus musculus with 13 samples.

Results

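Afp, Gpc3, Igf2bp3, Mest, Igf2, Dlk1, Peg3, Plagl1 and Cdkn1c are genes of prenatal growth, grouped here as imprinted (Mest, Igf2, Dlk1, Peg3, Plagl1 and Cdkn1c) or oncofetal (Afp, Gpc3 and Igf2bp3). They were chosen by name. Each was read through the array feature that carries its symbol alone in the probe annotation and, had there been several, through the one with the highest mean over 13 livers. All 9 genes had exactly 1 such feature (Igf2 has a further one that carries several symbols and was not used), so they are 9 of the 18820 genes named on the array and 9 of its 35556 features. An imprinted gene is expressed mainly from the copy of 1 parent. Mest, Igf2, Dlk1, Peg3 and Plagl1 use the paternal copy, and Cdkn1c the maternal one. An oncofetal gene is active in the fetal organ, silent in the adult one, and often active again in tumours of that organ. In the mouse liver many genes of both kinds are switched off in the first weeks after birth, when hepatocytes slow their division and take on adult functions.

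The livers came from C57BL/6J mice of 4 groups, and 1 array was hybridised per liver. LiSel1lKO mice at 9 weeks (n = 3) were compared with wildtype mice at 9 weeks (n = 3), and LiSel1lKO mice at 3 weeks (n = 4) with wildtype mice at 3 weeks (n = 3). LiSel1lKO mice lack Sel1L in hepatocytes, through loxP sites on both sides of exon 6 of Sel1l and a Cre recombinase that the albumin promoter drives. Sel1L is the partner of the ubiquitin ligase Hrd1 in the degradation of misfolded proteins of the endoplasmic reticulum. All mice were fasted for some hours in the morning before their livers were frozen. The labels give neither sex nor litter, and do not say whether wildtype mice carried floxed alleles. Values are log2 expression, so that a difference of 1 is a 2-fold difference. The array medians lay between 3.72 and 3.81, and without detection calls a level near or below them cannot be told from background. A probe's level depends on its sequence, so levels are compared between livers and never between genes.

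Sel1l checked the genotype labels. It stood at 7.90, 7.54 and 7.72 in LiSel1lKO livers and at 8.78, 8.70 and 8.72 in wildtype livers at 9 weeks, and at 8.42, 7.90, 7.20 and 7.10 in LiSel1lKO livers and 8.94, 8.77 and 8.85 in wildtype livers at 3 weeks. It was lower in every LiSel1lKO liver than in any wildtype liver of its age, although neither difference passed the test across all features (limma, adjusted p = 0.108 at 9 weeks and 0.391 at 3 weeks). Replicates 3 and 4 of the LiSel1lKO group at 3 weeks had the lowest Sel1l of their group and also stood apart in several of the growth genes, as given below with and without them. Leaving them out keeps the LiSel1lKO livers with the higher Sel1l, so it also changes the genotype contrast itself. The tissue label held: 11 of 12 hepatocyte marker genes were measured, and their mean level lay between 12.02 and 12.30 in all 13 livers, with 0 of the 11 changed in any comparison.

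Upstream sequences are shown for the 3 genes with the largest falls between 3 and 9 weeks, Gpc3, Igf2bp3 and Mest, and for Afp, the classical marker of fetal liver. Each is the RefSeq sequence (GRCm38.p6) of the 250 bases before an annotated transcription start, read 5′ to 3′ in the direction of the gene, from chrX:52613975-52614224 (minus strand) for Gpc3, chr6:49214955-49215204 (minus) for Igf2bp3, chr6:30737800-30738049 (plus) for 1 of 3 Mest starts, and chr5:90490464-90490713 (plus) for Afp. Capitals mark CG, TATAAA and, on either strand, GTTAAT, the first letters of the classical HNF1 site.
Gpc3: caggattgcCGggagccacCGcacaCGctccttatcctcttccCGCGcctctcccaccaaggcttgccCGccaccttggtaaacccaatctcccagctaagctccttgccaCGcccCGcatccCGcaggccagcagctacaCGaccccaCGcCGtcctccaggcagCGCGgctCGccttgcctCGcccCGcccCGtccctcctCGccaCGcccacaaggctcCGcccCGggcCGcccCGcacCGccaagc
Igf2bp3: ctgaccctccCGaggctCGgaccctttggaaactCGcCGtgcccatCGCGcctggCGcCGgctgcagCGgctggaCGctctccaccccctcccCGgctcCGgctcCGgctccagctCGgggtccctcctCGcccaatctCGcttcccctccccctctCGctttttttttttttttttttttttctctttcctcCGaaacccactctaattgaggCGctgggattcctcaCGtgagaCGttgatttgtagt
Mest: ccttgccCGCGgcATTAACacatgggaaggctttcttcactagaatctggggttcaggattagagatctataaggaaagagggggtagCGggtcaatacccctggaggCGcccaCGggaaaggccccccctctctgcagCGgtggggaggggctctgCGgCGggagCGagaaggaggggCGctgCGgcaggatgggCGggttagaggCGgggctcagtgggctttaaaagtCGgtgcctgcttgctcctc
Afp: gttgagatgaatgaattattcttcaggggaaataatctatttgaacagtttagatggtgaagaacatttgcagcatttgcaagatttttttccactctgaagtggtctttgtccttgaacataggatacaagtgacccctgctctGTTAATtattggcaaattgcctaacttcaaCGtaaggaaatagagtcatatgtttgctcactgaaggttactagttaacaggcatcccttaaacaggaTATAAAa
The Gpc3 window held 25 CG dinucleotides, a number reached by 10.7% of the 32851 windows of this length in the table, whose median was 6. The Igf2bp3 window held 21 (reached by 16.3%) and this Mest window 14 (reached by 29.4%), whereas another Mest start had 7. The Afp window held only 1 CG. Its last bases, directly before the annotated start, held a TATAAA, found on either strand in 12.4% of windows. The window also held a GTTAAT, which 6.43% of windows hold on either strand. Among the 13 windows of the 8 genes in the table, only that of Afp held TATAAA, and GTTAAT was also in the overlapping windows of 2 Mest starts. No window was listed for Cdkn1c. A match describes letters and does not show that a factor binds there.

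The growth genes that passed the test did so between ages, not between genotypes. In LiSel1lKO livers 2 of the 9 genes fell between 3 and 9 weeks (Igf2bp3 and Mest) and 0 rose, where 0.0787% of all features fell and 0.0759% rose. In wildtype livers 4 of 9 fell (Gpc3, Igf2bp3, Mest and Cdkn1c) and 0 rose, where 1.12% of all features fell and 0.765% rose. All 9 differences were below 0 in both genotypes, but those of Igf2, Dlk1 and Afp lie in signal around or below the array medians, where a sign says little. The signs for Dlk1 and Afp in wildtype livers and for Plagl1 in LiSel1lKO livers each changed under 1 other setting. The median of the 9 was -0.40 in LiSel1lKO and -0.63 in wildtype livers, where the median over all features was 0.00 and 0.01. Without overlap between ages, 7 genes were lower at 9 weeks in LiSel1lKO livers (all but Peg3 and Plagl1), as were 5.29% of all named genes, and 3 of the 7, Igf2, Dlk1 and Afp, had signal around or below the array medians. In wildtype livers 5 were (Gpc3, Igf2bp3, Mest, Plagl1 and Cdkn1c), as were 10.6% of named genes. In a bulk liver sample, fewer cells of a type and less RNA per cell cannot be told apart.

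**Figure D1:**
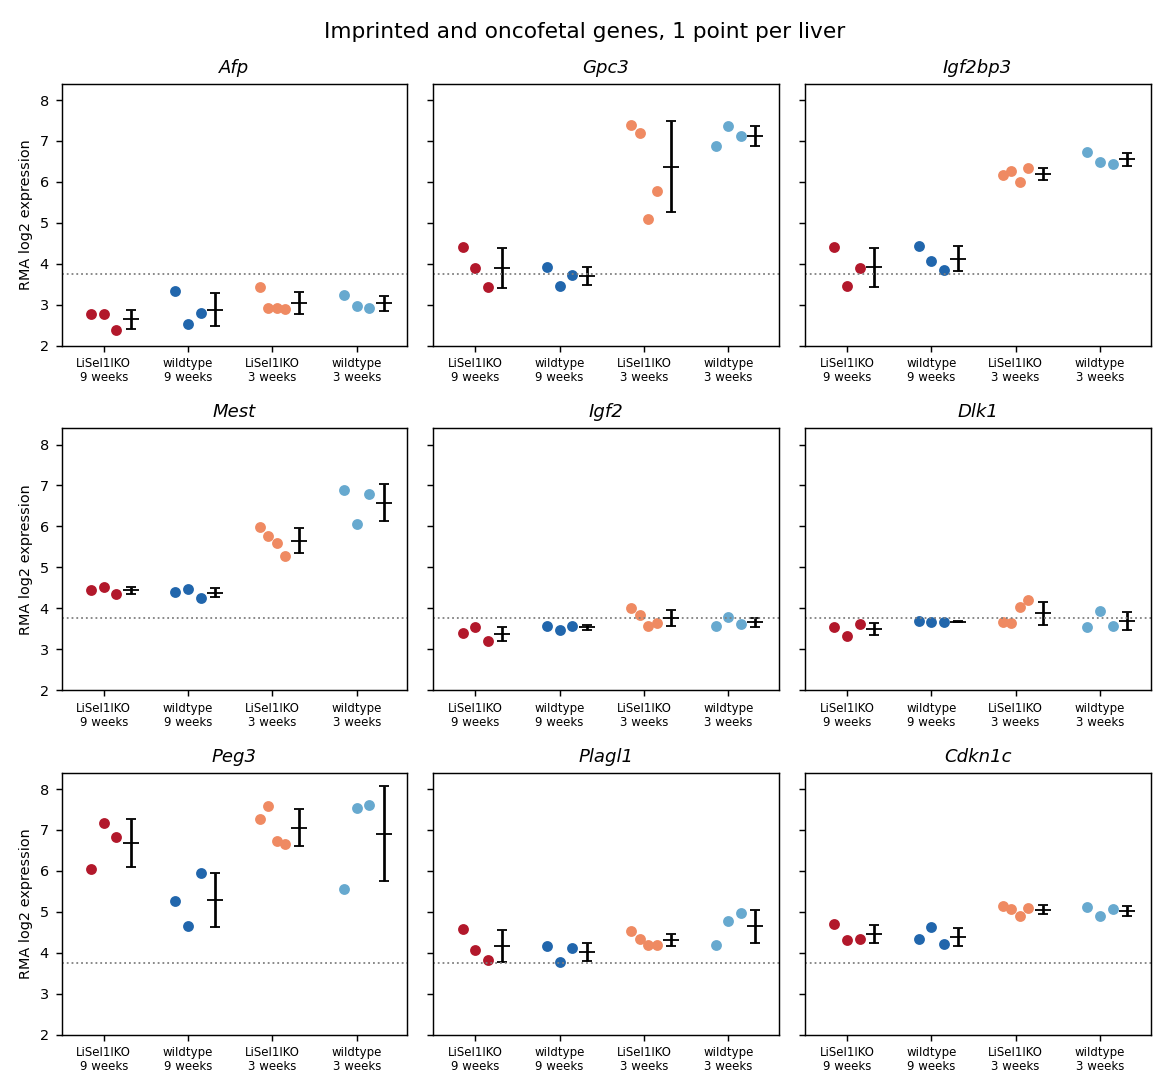
RMA log2 expression (y axis) of the 9 growth genes in each of 13 livers, by group (x axis). Points are livers, black bars are the mean ± SD of the group and the dotted line is the median feature mean, 3.76; Gpc3, Igf2bp3 and Mest are high at 3 weeks and low at 9 weeks in both genotypes, while all 13 Afp values lie below the line.

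Gpc3 (feature 10604576, X chromosome) encodes glypican-3, a heparan sulphate proteoglycan on the cell surface that restrains growth of the embryo and is a marker of hepatocellular carcinoma. At 9 weeks it stood at 4.40, 3.89 and 3.43 in LiSel1lKO livers and at 3.91, 3.46 and 3.72 in wildtype livers. At 3 weeks it stood at 7.39, 7.20, 5.10 and 5.77 in LiSel1lKO livers and at 6.87, 7.36 and 7.13 in wildtype livers. Every 9-week liver was thus below every 3-week liver, and all 6 were close to the array medians. LiSel1lKO replicates 3 and 4 at 3 weeks lay between the ages.

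In LiSel1lKO livers Gpc3 averaged 3.91 ± 0.49 at 9 weeks (n = 3) and 6.37 ± 1.11 at 3 weeks (SD, n = 4). The difference of -2.46 ± 0.48 (SE) did not pass the test (limma, adjusted p = 0.0856), although it was the 5th largest fall among 18820 named genes in that genotype. It passed in 4 of 22 other settings. These were features with 1 symbol only (adjusted p = 0.0308), features above the median feature only (0.0498), array weights (0.0432) and the removal of LiSel1lKO 3-week replicate 3 (-2.88, adjusted p = 0.0321). It also passed without both replicates 3 and 4 (-3.39, adjusted p = 0.00411), a removal chosen after seeing the data. In wildtype livers Gpc3 averaged 3.70 ± 0.23 at 9 weeks and 7.12 ± 0.25 at 3 weeks (SD, n = 3 each), a difference of -3.42 ± 0.51 (SE; limma, adjusted p = 0.00803). That is 10.7-fold lower at 9 weeks, and a lower bound if the 9-week level is background. It was the 10th largest fall among the named genes. It passed without any single liver. The difference in age effect between the genotypes was 0.96 ± 0.70 and also missed the threshold (limma, adjusted p = 0.709), with a 95% interval of -0.59 to 2.51. At 3 weeks the genotype difference was -0.75 ± 0.48 (adjusted p = 0.764), and 0.18 ± 0.26 (adjusted p = 0.996) without replicates 3 and 4, so its sign depended on these livers.

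Igf2bp3 (feature 10544610, chromosome 6) encodes an RNA-binding protein of the embryo that binds Igf2 mRNA, among others, and reappears in many carcinomas. At 9 weeks it stood at 4.40, 3.45 and 3.89 in LiSel1lKO livers and at 4.44, 4.08 and 3.85 in wildtype livers. The 3-week levels were 6.17, 6.27, 6.00 and 6.33 in LiSel1lKO livers and 6.73, 6.49 and 6.45 in wildtype livers. The ages did not overlap in either genotype, and the 4 LiSel1lKO livers at 3 weeks, unlike for Gpc3, lay close together. The age difference was -2.28 ± 0.20 in LiSel1lKO livers (limma, adjusted p = 0.00238; 4.86-fold lower at 9 weeks) and -2.43 ± 0.22 in wildtype livers (adjusted p = 0.000604; 5.40-fold lower). Like that of Gpc3, the 9-week level lies near the array medians, and the folds are lower bounds if it is background. Both differences passed without any single liver. With the other groups taken out of the fit, the one in LiSel1lKO livers missed the threshold narrowly (adjusted p = 0.05002). The age effects of the genotypes differed by 0.15 ± 0.30 (adjusted p = 0.910).

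Mest (feature 10537062, chromosome 6), an enzyme of the alpha/beta hydrolase fold, is expressed from the paternal copy and is high in growing embryonic tissue. At 9 weeks it stood at 4.45, 4.52 and 4.35 in LiSel1lKO livers and at 4.40, 4.47 and 4.26 in wildtype livers. Livers taken at 3 weeks gave values of 5.99, 5.77, 5.59 and 5.27 in LiSel1lKO livers and 6.89, 6.07 and 6.79 in wildtype livers. The 9-week groups coincided, while at 3 weeks each LiSel1lKO liver was below each wildtype liver. The 9-week level of Mest lay only a little above the array medians. If it is background, the age folds are lower bounds, and a genotype difference at that age could not be seen. In LiSel1lKO livers the age difference was -1.22 ± 0.20 (limma, adjusted p = 0.0498; 2.32-fold lower at 9 weeks). This call was at the threshold: it was lost in 12 of 13 removals of a single liver, all but that of wildtype 3-week replicate 2, with adjusted p up to 0.232. It was also lost under the replicate block, the code number block, both other normalizations and with only the compared groups in the fit. The difference stayed between -1.34 and -1.10 in all 13, and was -1.44 ± 0.22 (adjusted p = 0.0448) without LiSel1lKO 3-week replicates 3 and 4. In wildtype livers it was -2.21 ± 0.21 (adjusted p = 0.00114; 4.62-fold lower), and passed without any single liver.

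The genotype difference of Mest at 3 weeks was -0.93 ± 0.20 (limma), with an unadjusted p of 0.000705 and an adjusted p of 0.391. Without LiSel1lKO replicates 3 and 4 it was -0.70 ± 0.22 (adjusted p = 0.989). At 9 weeks it was 0.06 ± 0.21 (adjusted p = 0.939), and the interaction, 0.99 ± 0.29, had an adjusted p of 0.344 (unadjusted p = 0.00612). No feature of the array passed in the comparison of genotypes at 3 weeks, with a smallest adjusted p of 0.186. Mest can therefore be described as lower in 4 of 4 LiSel1lKO livers at 3 weeks without a call. The array descriptions carry a code number, 5 or 7, whose meaning is not stated and which was treated as a possible batch. Within codes 5 and 7 the difference was -1.32 and -0.28, and code 7 held 1 wildtype liver.

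Cdkn1c (feature 10569429, chromosome 7) encodes p57, an inhibitor of cyclin-dependent kinases that restrains fetal growth and is expressed from the maternal copy. At 9 weeks it stood at 4.71, 4.32 and 4.33 in LiSel1lKO livers and at 4.33, 4.64 and 4.21 in wildtype livers. At 3 weeks it stood at 5.15, 5.08, 4.89 and 5.09 in LiSel1lKO livers and at 5.11, 4.89 and 5.06 in wildtype livers. The ages did not overlap in either genotype, and the genotypes overlapped at both ages. Its age difference was -0.60 ± 0.13 in LiSel1lKO livers (limma, adjusted p = 0.116) and -0.63 ± 0.14 in wildtype livers (adjusted p = 0.0445; 1.55-fold lower at 9 weeks). The fold is a lower bound if the 9-week level, a little above the array medians, is background. The wildtype call was lost in 11 of 13 removals of a single liver, all but those of LiSel1lKO 9-week replicate 1 and wildtype 9-week replicate 2, with adjusted p up to 0.145. It was also lost under the replicate block (adjusted p = 0.0802), the code number block (0.0534), repeated quantile normalization (0.0566), centring on array medians (0.0527), eBayes with trend and robust (0.0575) and with only the compared groups in the fit (0.152). The LiSel1lKO difference passed (adjusted p = 0.0372) without LiSel1lKO 9-week replicate 1.

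**Figure D2:**
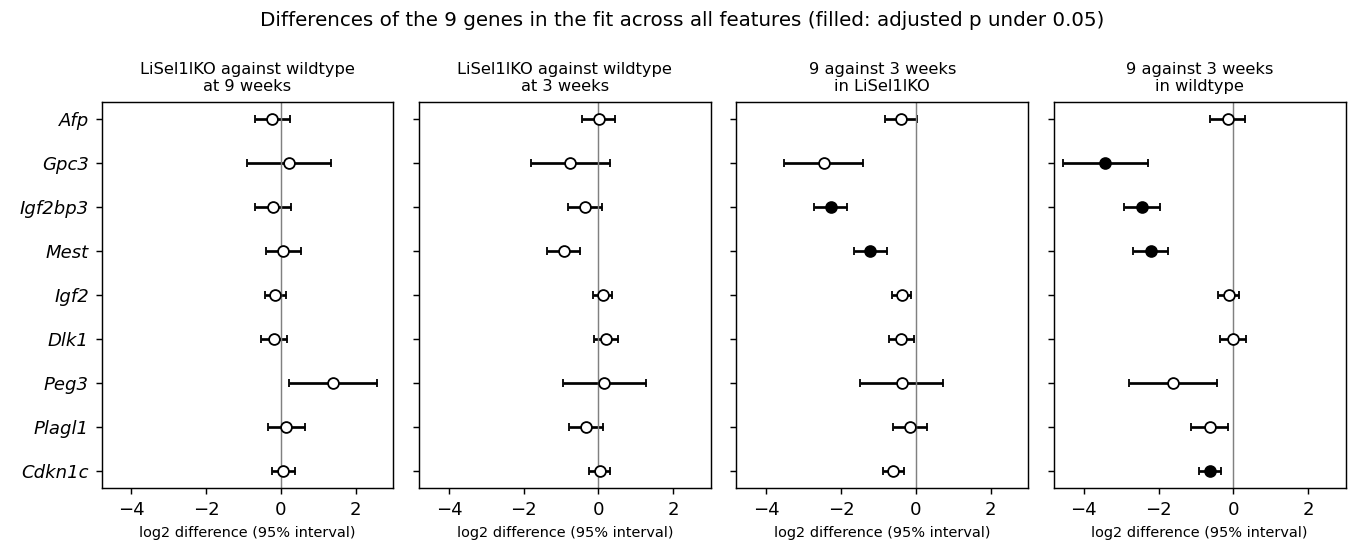
Log2 differences (x axis) of the 9 growth genes between LiSel1lKO and wildtype livers at each age and between 9 and 3 weeks in each genotype, with 95% intervals from limma. Filled points have an adjusted p under 0.05 and open points do not; the filled points are Igf2bp3 and Mest for age in LiSel1lKO livers and Gpc3, Igf2bp3, Mest and Cdkn1c for age in wildtype livers.

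Peg3 (feature 10559796, chromosome 7) encodes a zinc finger protein expressed from the paternal copy. At 9 weeks it stood at 6.05, 7.17 and 6.83 in LiSel1lKO livers and at 5.26, 4.65 and 5.96 in wildtype livers. The 3-week levels were 7.27, 7.58, 6.73 and 6.65 in LiSel1lKO livers and 5.56, 7.54 and 7.62 in wildtype livers. It was higher in each LiSel1lKO liver than in any wildtype liver at 9 weeks by a narrow margin between the nearest values, and wildtype replicate 1 at 3 weeks was far below the others of its group. The genotype difference at 9 weeks was 1.39 ± 0.54, or 2.63-fold, with an unadjusted p of 0.0251 and an adjusted p of 0.265 (limma). The age difference was -0.38 ± 0.50 in LiSel1lKO livers (adjusted p = 0.891) and -1.62 ± 0.54 in wildtype livers (adjusted p = 0.192). The wildtype one was -2.29 with an adjusted p of 0.0393 without wildtype 3-week replicate 1. The interaction was 1.24 ± 0.74 (adjusted p = 0.625).

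Plagl1 (feature 10361771, chromosome 10) encodes a zinc finger transcription factor that acts on other imprinted genes in the mouse. It stood at 4.58, 4.08 and 3.83 in LiSel1lKO livers and at 4.16, 3.77 and 4.12 in wildtype livers at 9 weeks. Livers taken at 3 weeks gave values of 4.52, 4.34, 4.20 and 4.19 in LiSel1lKO livers and 4.20, 4.78 and 4.97 in wildtype livers. The ages overlapped in LiSel1lKO livers and narrowly did not in wildtype livers, where the difference was -0.63 ± 0.22 (limma, adjusted p = 0.221).

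Igf2, Dlk1 and Afp had low signal at both ages. Igf2 (feature 10569344, chromosome 7) encodes insulin-like growth factor 2, the main growth factor of the fetus, and is expressed from the paternal copy. It stood at 3.39, 3.54 and 3.20 in LiSel1lKO livers and at 3.57, 3.47 and 3.56 in wildtype livers at 9 weeks. At 3 weeks it stood at 4.01, 3.83, 3.56 and 3.64 in LiSel1lKO livers and at 3.56, 3.78 and 3.61 in wildtype livers. All 13 values lay around the array medians. The age difference was -0.38 ± 0.12 in LiSel1lKO livers, without overlap, and -0.12 ± 0.13 in wildtype livers (limma, adjusted p = 0.270 and 0.754).

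Dlk1 (feature 10398319, chromosome 12) encodes a transmembrane protein related to Notch ligands that marks hepatoblasts, the progenitors of the fetal liver. It stood at 3.55, 3.33 and 3.61 in LiSel1lKO livers and at 3.68, 3.67 and 3.67 in wildtype livers at 9 weeks. The 3-week levels were 3.66, 3.64, 4.02 and 4.21 in LiSel1lKO livers and 3.55, 3.93 and 3.58 in wildtype livers. The 2 highest values of all 13 belonged to LiSel1lKO replicates 3 and 4 at 3 weeks, the livers with the lowest Gpc3 and Mest of that age. The age difference was -0.39 ± 0.15 in LiSel1lKO livers and -0.01 ± 0.16 in wildtype livers (limma, adjusted p = 0.402 and 0.987). Without those 2 livers the LiSel1lKO difference was -0.15 ± 0.13 (adjusted p = 0.862).

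Afp (feature 10523078, chromosome 5) encodes alpha-fetoprotein, the main serum protein of the fetus, made by the yolk sac and fetal hepatocytes. It stood at 2.77, 2.77 and 2.38 in LiSel1lKO livers and at 3.33, 2.52 and 2.79 in wildtype livers at 9 weeks. Livers taken at 3 weeks gave values of 3.43, 2.93, 2.91 and 2.90 in LiSel1lKO livers and 3.24, 2.96 and 2.91 in wildtype livers. All 13 values were below every array median. The age difference was -0.40 ± 0.20 in LiSel1lKO livers and -0.15 ± 0.21 in wildtype livers (limma, adjusted p = 0.549 and 0.827). Without detection calls, a further fall from this level cannot be told from background, and the sign of these differences says little.

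Between genotypes, 0 of the 9 genes were called at 9 weeks, where 1.52% of all features were called, and 0 at 3 weeks or in the interaction, where 0% of features were. At an unadjusted p under 0.05 there was 1 gene in each: Peg3 was higher at 9 weeks, as were 7.86% of features, Mest lower at 3 weeks, as were 3.5%, and Mest above 0 in the interaction, as were 5.18%. Without overlap at 9 weeks, Peg3 was higher in LiSel1lKO livers, as were 11.4% of named genes, and Dlk1 was lower, as were 9.34%. At 3 weeks Mest and Igf2bp3 were lower, as were 3.79% of named genes. The Igf2bp3 difference was -0.36 ± 0.20 (limma, adjusted p = 0.737), and the Dlk1 difference -0.18 ± 0.16 (adjusted p = 0.697).

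The array also reads other genes of the same loci and programmes. The list of other imprinted genes had 35 of 40 members measured. In wildtype ageing 1 fell, Grb10, and 0 rose, where 1.12% of all features fell and 0.765% rose, and in the other 4 comparisons 0 were called. Grb10 encodes an adaptor that restrains insulin and growth factor signalling. It averaged 4.95 ± 0.08 in LiSel1lKO livers and 4.74 ± 0.27 in wildtype livers at 9 weeks (SD, n = 3 each), and 5.96 ± 0.41 in LiSel1lKO livers (n = 4) and 6.58 ± 0.05 in wildtype livers (n = 3) at 3 weeks. Its age difference was -1.01 ± 0.19 in LiSel1lKO livers (limma, adjusted p = 0.0850) and -1.84 ± 0.21 in wildtype livers (adjusted p = 0.00206). As were Gpc3 and Mest, Grb10 was lowest among 3-week livers in LiSel1lKO replicates 3 and 4, at 5.56 and 5.74. The median age difference over the 35 genes was -0.07 in LiSel1lKO and -0.04 in wildtype livers, against 0.00 and 0.01 over all features.

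The list of other fetal and oncofetal liver genes had 28 of 30 members measured. In LiSel1lKO ageing 1 fell (Lpl), where 0.0787% of all features fell, in wildtype ageing 3 fell (Lpl, Bex4 and Akr1b10), where 1.12% did, and at 9 weeks 1 was higher in LiSel1lKO livers, again Lpl, where 1.03% of all features were. Lpl encodes lipoprotein lipase, which releases fatty acids from circulating triglycerides and which the mouse liver makes mainly before and around birth. It stood at 7.38, 7.20 and 6.71 in LiSel1lKO livers and at 6.10, 5.99 and 5.78 in wildtype livers at 9 weeks. At 3 weeks it stood at 8.67, 8.39, 9.01 and 8.92 in LiSel1lKO livers and at 8.12, 8.71 and 8.87 in wildtype livers. The genotypes did not overlap at 9 weeks and overlapped at 3 weeks. The genotype difference at 9 weeks was 1.14 ± 0.23, or 2.20-fold (limma, adjusted p = 0.0378). It was kept only without LiSel1lKO 3-week replicate 2 or 3 or wildtype 3-week replicate 1 or 3, and was lost in the other 9 removals of a single liver, with adjusted p up to 0.153. It was also lost under the replicate block, the code number block and repeated quantile normalization. With only the compared groups in the fit, the 1 feature called was lower in LiSel1lKO livers, so the Lpl call was lost there too.

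The age difference of Lpl was -1.66 ± 0.22 in LiSel1lKO livers (limma, adjusted p = 0.0196) and -2.61 ± 0.23 in wildtype livers (adjusted p = 0.000559). The first was lost without LiSel1lKO 9-week replicate 2 or 3 or LiSel1lKO 3-week replicate 1 or 4 (adjusted p up to 0.113) and under the replicate block, and the second passed without any single liver. The interaction, 0.95 ± 0.32, was not called (adjusted p = 0.380). Bex4 fell by 1.15 ± 0.24 and Akr1b10 by 0.70 ± 0.15 in wildtype livers (adjusted p = 0.0335 and 0.0445), calls that were lost in 7 and 11 of 13 removals of a single liver. Both were also lost under the replicate block and the code number block, and that of Akr1b10 under eBayes with trend and robust. Among these 3 genes, only the wildtype fall of Lpl passed in all 13 removals.

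The list of Afp neighbours and regulators had 16 of 20 members measured, and 1 rose in wildtype ageing, where 0.765% of all features rose, with 0 called elsewhere. It was Zbtb20, a zinc finger repressor that silences Afp after birth in the mouse. It averaged 8.61 ± 0.07 in LiSel1lKO livers and 9.10 ± 0.12 in wildtype livers at 9 weeks (SD, n = 3 each), and 8.21 ± 0.21 in LiSel1lKO livers (n = 4) and 8.27 ± 0.31 in wildtype livers (n = 3) at 3 weeks. The age difference was 0.40 ± 0.15 in LiSel1lKO livers (limma, adjusted p = 0.376) and 0.83 ± 0.16 in wildtype livers (adjusted p = 0.0245). The wildtype call was lost without wildtype 9-week replicate 2 or 3 or wildtype 3-week replicate 1, and under the replicate block. Zhx2, which in the mouse controls the postnatal silencing of Afp, H19, Gpc3 and Lpl, had an age difference of 0.32 ± 0.13 in wildtype livers (adjusted p = 0.284). Zhx2 is outside the rule for named genes and is given for that known role. Alb, the neighbour of Afp on chromosome 5 and the gene whose promoter drives the Cre, lay between 13.25 and 13.37 in all 13 livers.

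The list of the IGF and insulin receptor axis had 19 of 19 members measured. At 9 weeks 2 were lower in LiSel1lKO livers, Ghr and Igf1, where 0.484% of all features were. In wildtype ageing Ghr rose, where 0.765% of all features did. Ghr, the growth hormone receptor, lay at 9.22, 8.69 and 8.85 in LiSel1lKO livers and at 9.60, 9.77 and 9.77 in wildtype livers at 9 weeks, a difference of -0.79 ± 0.13 (limma, adjusted p = 0.0196). Igf1, the growth factor that the liver secretes under growth hormone after birth, lay at 9.62, 9.28 and 9.70 in LiSel1lKO livers and at 10.07, 10.08 and 10.05 in wildtype livers, a difference of -0.53 ± 0.10 (adjusted p = 0.0295). Neither pair of groups overlapped. Both calls were lost without LiSel1lKO 9-week replicate 2 or 3 or wildtype 9-week replicate 2 or 3, and that of Igf1 also without wildtype 9-week replicate 1. They were lost under the replicate block too. With only the compared groups in the fit, 1 feature of the array was called, so the 2 calls did not both hold there. Ghr rose by 0.81 ± 0.13 in wildtype livers between 3 and 9 weeks (adjusted p = 0.0117), also without any single liver.

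Within the livers, the gene most like Gpc3 among 10609 genes with a mean above the median feature was a microRNA gene. The feature 10569341, annotated to Mir675, correlated with Gpc3 at r = 0.989 over 13 livers, and at 0.969 after the group means were taken out. The second r draws mainly on LiSel1lKO livers at 3 weeks. Their SD was the largest of any group for both, 1.84 for Mir675 and 1.11 for Gpc3. These r are descriptions over livers that share their group structure, the highest of a search, and carry no test. In RefSeq Mir675 lies within H19, the maternally expressed noncoding RNA next to Igf2 on chromosome 7. A feature for H19 itself was not matched. The mature sequences of the microRNA (RefSeq, GRCm38.p6, minus strand, chr7:142577112-142577133 for the 5p and chr7:142577078-142577099 for the 3p arm) are shown with the seed, bases 2 to 8, in capitals, because the array feature was named by this microRNA.
mmu-miR-675-5p: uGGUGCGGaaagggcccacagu
mmu-miR-675-3p: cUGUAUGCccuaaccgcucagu
The seeds differ between the arms. The array cannot tell the microRNA from the longer RNA that holds it.

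The Mir675 feature stood at 4.88, 4.57 and 3.66 in LiSel1lKO livers and at 3.95, 3.85 and 3.41 in wildtype livers at 9 weeks. The 3-week levels were 8.74, 8.85, 5.26 and 6.04 in LiSel1lKO livers and 7.92, 8.61 and 8.14 in wildtype livers. LiSel1lKO replicates 3 and 4 at 3 weeks again lay far below the rest of their age, as for Gpc3. Its age difference was -2.85 ± 0.77 in LiSel1lKO livers (limma, adjusted p = 0.205) and -4.48 ± 0.82 in wildtype livers (adjusted p = 0.0214; 22.3-fold lower, a lower bound if the 9-week level, near the array medians, is background). The wildtype call was lost without any 1 of the 6 wildtype livers (adjusted p up to 0.0769), while the difference stayed between -4.63 and -4.29. The next most like Gpc3 was Fmo1, a flavin monooxygenase of the liver (r = 0.981), which fell by 0.56 ± 0.10 in wildtype livers (adjusted p = 0.01996), a call lost without wildtype 9-week replicate 1, 2 or 3 or wildtype 3-week replicate 2 or 3.

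**Figure D3:**
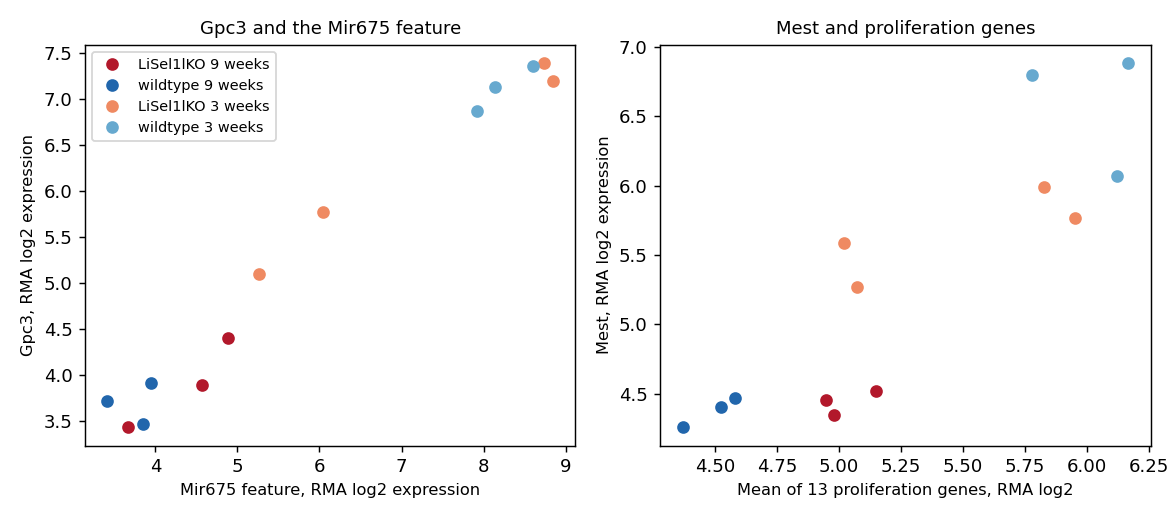
Left, the log2 level of Gpc3 (y axis) against that of the Mir675 feature (x axis). Right, the log2 level of Mest (y axis) against the mean log2 level of 13 proliferation genes (x axis). Each point is 1 liver, marked by group. LiSel1lKO replicates 3 and 4 at 3 weeks, at Gpc3 levels of 5.10 and 5.77, lie between the ages on the left.

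Mest was most like Pxdn (r = 0.972), a peroxidase of the extracellular matrix, and Cdkn3 (r = 0.966), a phosphatase of the cell cycle. Igf2bp3 was most like Slc25a4 (r = 0.971), the mitochondrial ADP/ATP carrier, and Sparc (r = 0.939), a matrix protein. Slc25a4 fell in both genotypes, by 1.64 ± 0.19 in LiSel1lKO livers (limma, adjusted p = 0.0140) and by 1.96 ± 0.20 in wildtype livers (adjusted p = 0.00126). The LiSel1lKO call was lost without LiSel1lKO 9-week replicate 3 (adjusted p = 0.112). Cdkn1c was most like Aurka (r = 0.926), a mitotic kinase, and Igf2bp3 (r = 0.923). After the group means were taken out, r of Igf2bp3 with Slc25a4 was 0.513 and of Cdkn1c with Aurka 0.548, well below the values with them. Peg3 was most like Cyp4a14 (r = 0.929; 0.885 without group means) and Cyp4a31 (r = 0.884), fatty acid hydroxylases of the liver. The pairs for Plagl1 were Pcdh17 (r = 0.929) and Hacd3, for Afp Pfdn1 and Col5a2, for Igf2 Nfia and Mirlet7c-2, and for Dlk1 Emc2 and Hacd1. Those of Afp, Igf2 and Dlk1 rest on signal near the array medians.

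**Figure D4:**
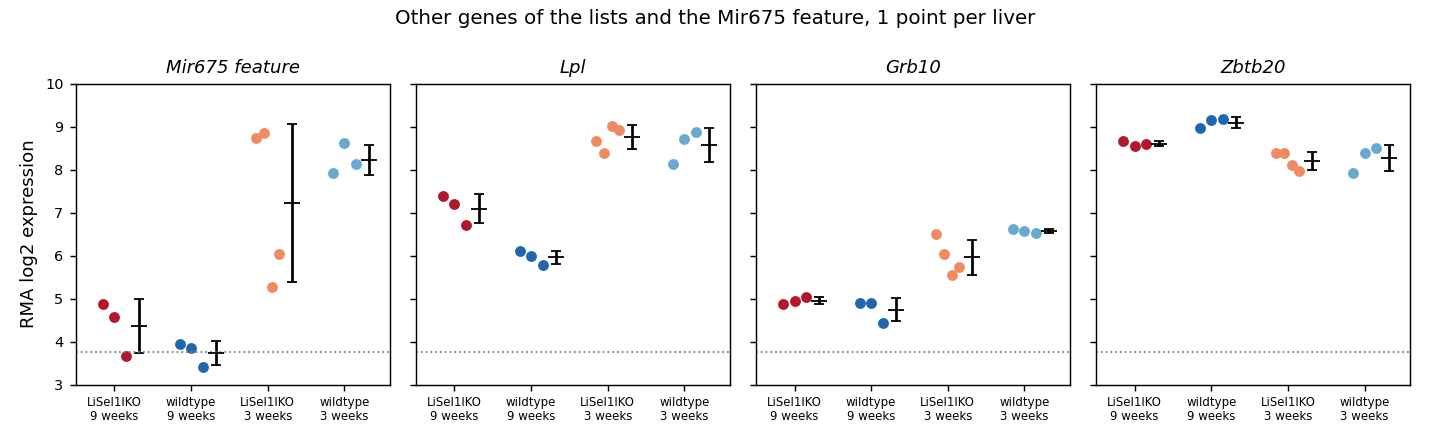
RMA log2 expression (y axis) of the Mir675 feature, Lpl, Grb10 and Zbtb20 in each liver by group (x axis), with the mean ± SD. The Mir675 feature, Lpl and Grb10 are lower at 9 weeks than at 3 weeks, and Lpl is higher in LiSel1lKO than in wildtype livers at 9 weeks.

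Genes of other cell states moved with age as well. Of 13 proliferation genes measured, 0 fell in LiSel1lKO ageing, where 0.0787% of all features fell. In wildtype ageing 8 of the 13 fell, where 1.12% of all features did. The difference between these counts was not tested. The mean level of the 13 genes was 4.95 to 5.15 in LiSel1lKO livers and 4.37 to 4.58 in wildtype livers at 9 weeks. At 3 weeks it was 5.02 to 5.95 in LiSel1lKO livers and 5.78 to 6.17 in wildtype livers. In LiSel1lKO replicates 3 and 4 at 3 weeks it was 5.02 and 5.07, against 5.83 and 5.95 in replicates 1 and 2. Gpc3 and Mest were lowest in the same livers of this group. Between genotypes 0 of the 13 were called at either age, though all 13 were above wildtype at 9 weeks and all 13 below it at 3 weeks, where 49.0% of all features were below 0. Without LiSel1lKO replicates 3 and 4 at 3 weeks, 11 of the 13 were below wildtype, with a median of -0.13, against -0.55 with them. In wildtype ageing, where 1.12% of all features fell and 0.765% rose, 3 of 12 sinusoidal endothelial markers fell (mean level 8.01 to 8.13 at 9 weeks and 8.34 to 8.36 at 3 weeks). So did 1 of 12 stellate cell markers (6.07 to 7.001 and 6.74 to 6.95) and 1 of 7 erythroid markers (3.92 to 4.07 and 4.18 to 4.79). Of 12 Kupffer cell markers, 1 fell and 1 rose (7.42 to 7.83 and 7.80 to 7.90). In this comparison 11 of the 12 were below 0, with a median of -0.27. The one that rose was C6, a complement gene that hepatocytes also make and that counts in the list's mean level. It was also lower in LiSel1lKO livers at 9 weeks, where 0.484% of all features were. Of 6 bile duct and 9 lymphocyte markers, 0 were called. Beside the lower Mest, Igf2bp3 and Grb10 of LiSel1lKO livers at 3 weeks, the mean levels of 3 marker lists were lower without overlap. They were 8.01 to 8.28 in LiSel1lKO and 8.34 to 8.36 in wildtype livers for sinusoidal endothelial, 7.36 to 7.66 and 7.80 to 7.90 for Kupffer cell and 3.82 to 4.13 and 4.18 to 4.79 for erythroid markers. At that age 10 of 12, 12 of 12 and 7 of 7 of their genes were below wildtype (8 of 12, 12 of 12 and 7 of 7 without replicates 3 and 4), and 0 were called. The mean level of the other fetal and oncofetal liver genes was also lower without overlap, narrowly, at 4.375 to 4.555 against 4.562 to 4.643. Of its 28 genes, 20 were below wildtype (21 without replicates 3 and 4), and 0 were called. The part of these cell types and of division in the differences of the growth genes was not tested.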

How the data were processed

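Liver RNA from 13 mice was measured on Affymetrix arrays, 1 per liver. The deposited values are log2 expression made by the authors with RMA, per the submitters' processing notes. No source used here gives the RMA version or how probes were grouped into features. RMA normalizes arrays to each other, which removes shifts common to most genes. How many arrays there are limits the precision, and the median SD of a feature within a group was 0.15 to 0.16.

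Contrasts of group means were fitted to all 13 livers in limma 3.58.1 (R 4.3.3), feature by feature for all 35556, with empirical Bayes variances and two-sided tests. The Benjamini-Hochberg adjustment ran over the whole table, and a feature is called where its adjusted p is under 0.05. The test was checked on simulated data. The p-values set differences of group means against the spread between mice of the same group, pooled over the groups.

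Of all features, 21218 had 1 symbol, 1881 several and 12457 none. Named beside the 9 genes were Sel1l, from each of the 4 gene lists up to 6 called genes per comparison (up to 3 as values where fewer were called), and for each of the 9 genes the 2 genes with the highest r. The genes, lists and tests were chosen with earlier results of these data known. Besides the 4 gene lists, marker lists for hepatocytes, sinusoidal endothelium, stellate, erythroid, Kupffer and bile duct cells, lymphocytes and proliferation were counted. Upstream sequences were RefSeq's. The code number in the array descriptions (5 or 7), whose meaning is not stated, was taken as a possible batch. Alternatives changed the block, filter, normalization, variance model and samples.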

Additional observations from a re-analysis of the deposited data

Results flagged for a closer look

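Afp stood at 3.43 in LiSel1lKO replicate 1 at 3 weeks and at 2.93, 2.91 and 2.90 in replicates 2, 3 and 4. The gap to the nearest value was 0.958 of the group's range, above Dixon's 95% critical value for 4 livers. Chance alone picks out about 1 in 20 such groups. All of these values are below the array medians.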

How the results depend on the processing

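Over 966 values of the 9 genes under other settings, 924 stayed on their side of the threshold, 35 lost a call, 7 gained one, and 0 called values changed sign. The age falls of Gpc3, Igf2bp3 and Mest in wildtype livers were called in all of them. The lack of detection calls limits what low features such as Afp can show.

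For genes called between ages in LiSel1lKO livers (2), the count was 1 with the replicate block, with the code number as a block, with quantile normalization repeated and with arrays centred on their medians, 4 with array weights, and 0 with only the compared groups in the fit. Leaving out a liver gave 1 to 2 there and 3 to 4 in wildtype livers (4 called). Cdkn1c in wildtype livers was called in 5 of 22 settings. Within code numbers 5 and 7, whose meaning is not stated, the age difference in wildtype livers was -3.54 and -3.54 for Gpc3, -2.51 and -2.34 for Igf2bp3, -2.37 and -1.74 for Mest and -0.45 and -0.62 for Cdkn1c.

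Features called between genotypes at 9 weeks (539) numbered 184 with the replicate block, 294 with the code block, 859 above the median feature, 1106 with array weights, 1 with only the compared groups and 18 to 1178 without a single liver (the lowest without LiSel1lKO 9-week replicate 3, the highest without replicate 1). At 3 weeks and in the interaction (0 each), they numbered 2 and 15 among features with 1 symbol, and 0 to 1 and 0 to 36 without a single liver. Between ages in LiSel1lKO livers (55) they numbered 12 with the replicate block, 18 with the code block, 144 with 1 symbol, 109 above the median feature, 35 centred, 151 with array weights, 9 with only the compared groups and 6 to 210 without a liver. In wildtype livers (672) they numbered 440 with the replicate block, 255 with only the compared groups and 296 to 639 without a liver. Without LiSel1lKO 3-week replicates 3 and 4, chosen after seeing the data, 279 were called between genotypes at 9 weeks. The cause of these changes was not tested.

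Of 18 pairs of livers with the same replicate number, 0 deviated together at r over 0.1 (r from -0.01 to 0.08). Such a cutoff cannot show that livers of the same replicate number were unrelated. The numbers are those of the titles; for replicate 3 of each genotype at 9 weeks the title and the array description give different numbers, so the counts with the block rest on the titles. Each gene has 1 feature with its symbol alone, so no other such feature could be tried, and the Igf2 feature with several symbols was not used.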

Other observations

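MicroRNA genes hosted by Mest and Igf2 have features of their own, named here after their values were seen. Mir335 (feature 10537076), in Mest, lay between 2.47 and 2.97 in all 13 livers, below every array median. Its difference between 9 and 3 weeks was -0.00 ± 0.11 in LiSel1lKO livers and 0.07 ± 0.12 in wildtype livers (limma, adjusted p = 0.997 and 0.857), where the Mest feature fell in both. Mir483 (feature 10569356), in Igf2, lay between 4.81 and 5.49, and its age difference was 0.09 ± 0.12 in LiSel1lKO livers and 0.10 ± 0.13 in wildtype livers (adjusted p = 0.892 and 0.812).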
